A study of Mus musculus with 2031 samples.

Results

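Astrocytes release proteins that tell neurons when to build a synapse, when to strengthen it and when to stop. The 7 genes described here encode such proteins, or close relatives of them: the matricellular proteins Sparc and Sparcl1 (also called hevin), the glypicans Gpc4, Gpc5 and Gpc6, the bone morphogenetic protein (BMP) antagonist Chrdl1, and Spon1 (F-spondin). They were taken by name from the 49671 gene identifiers counted in each cell, and all 7 were found. They were chosen with earlier results of these data known.

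The roles of these proteins differ. Hevin promotes excitatory synapses, whereas Sparc, which shares its calcium-binding domain, counteracts hevin. Glypicans are heparan sulfate proteoglycans held at the membrane by a lipid anchor and shed from it, and Gpc4 and Gpc6 bring GluA1-containing AMPA receptors to young synapses. Chrdl1 favours the switch to GluA2-containing receptors in maturing synapses. Spon1 is an extracellular matrix protein of axon guidance that binds the amyloid precursor protein APP and receptors of apolipoprotein E.

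The cells came from the cortex and hippocampus of C57BL/6J mice at postnatal day 56, untreated and with no transgene or deletion named. Each of the 2 cortical cell suspensions (cortex 1 and 2) was made from the tissue of a single mouse, and these mice were littermates. Each of the 2 hippocampal suspensions (hippocampus 1 and 2) pooled 4 littermates of another litter, so that area, litter and pooling cannot be told apart. Single cells were sorted as positive for ACSA-2, an epitope of the astrocyte surface protein ATP1B2, negative for the oligodendrocyte antigen O1 and alive, and polyadenylated RNA was sequenced by Smart-seq2, a full-length protocol without molecular identifiers. Files of 2030 cells were used. The cell types are those the authors assigned by clustering the same counts, so that differences between types or subtypes describe these groups and are not independent evidence of them. Of the cells, 1781 were astrocytes of 5 subtypes (657 AST1, 555 AST2, 452 AST3, 91 AST4 and 26 AST5). Mural cells numbered 27, 12, 48 and 47 in cortex 1, cortex 2, hippocampus 1 and hippocampus 2, and 30 cells were endothelial, 17 neuronal, 11 microglial and 9 oligodendrocytic, while 48 had no type here.

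Each cell held between 600758 and 3238215 counts in genes, with a median of 1458410. Levels are given as CPM, the counts of a gene scaled to the total gene counts of the summed cells. All 6 astrocyte markers were counted in every subtype, at a summed 12336 to 20247 CPM, of which Slc1a3 was the largest part in AST1 to AST4. In AST4 Aldh1l1, Gjb6 and Aqp4 were at 76.1, 161.6 and 223.1 CPM, and in AST1 to AST3 none of the 3 was below 538.1 CPM. AST5 stood apart in that the median share of reads not assigned to exons was 1.59% in its cells and 12.5% over all astrocytes. All 7 mural, 6 endothelial, 6 microglial and 6 oligodendrocyte markers were counted in the types of those names. The cells typed as endothelial also carried mural genes (Rgs5 at 7738 CPM with a count in 100% of the cells, Vtn at 6445 CPM in 73.3%). The cells typed as neuronal held Celf4, Snap25 and Syt1 at 711, 999 and 565 CPM, while the defining genes Rbfox3, Slc17a7 and Gad1 were at 0 in all 17, which allows a share of cells with a count of up to 17.6%. All neuronal cells came from the hippocampus, and 89 of the 91 AST4 cells did.

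On GRCm38, Sparc lies on the minus strand of chromosome 11 (55394500 to 55423183) and Sparcl1 on the minus strand of chromosome 5 (104079111 to 104113733). Gpc5 (chromosome 14, 115092215 to 116525179) and Gpc6 (chromosome 14, 116925315 to 117976544) are neighbours on the plus strand, 400 kb apart. Gpc4 (X, 52053021 to 52165252) and Chrdl1 (X, 143285674 to 143394262) are both on the minus strand of the X chromosome, and Spon1 is on the plus strand of chromosome 7 (113765998 to 114043370). Counts came from their exons, which make up between 0.311% (Gpc5) and 13.2% (Sparc) of the gene. Only Gpc5 shares exonic bases with another gene (Gm20713, on the opposite strand).

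Sparcl1 was by far the most abundant of the 7 RNAs in astrocytes. To set genes beside each other, CPM were divided by exon length in kilobases: over the 4 suspensions astrocytes held Sparcl1 at 2642 ± 357.4 CPM per kb (SD, n = 4), Gpc5 at 119.4 ± 16.99, Sparc at 86.4 ± 70.8, Chrdl1 at 30.9 ± 29.1, Gpc4 at 21.9 ± 3.95, Gpc6 at 19.7 ± 2.34 and Spon1 at 12.7 ± 1.73. Relative to their means Sparc and Chrdl1 had the widest spread between suspensions, which followed the brain area. All other values are plain CPM, summed over the cells of a suspension and not divided by length.

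**Figure D1:**
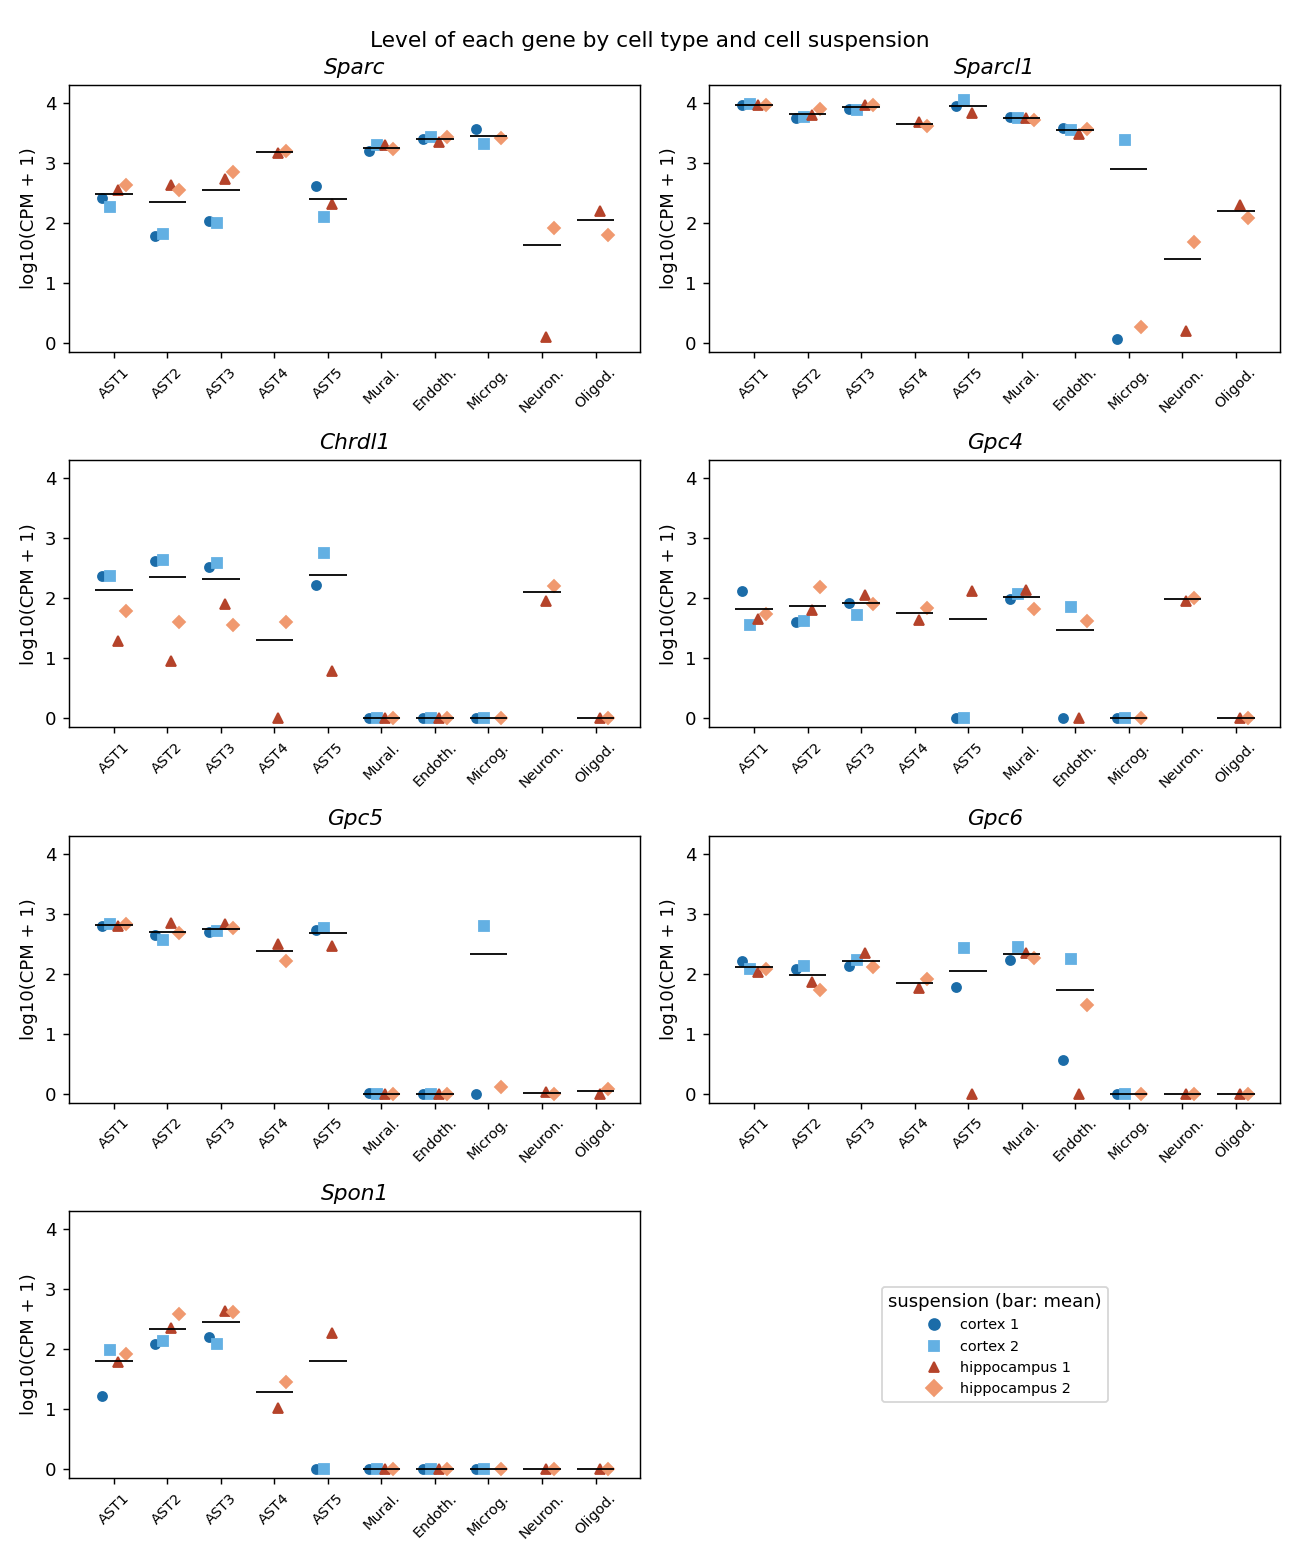
Level of each gene (log10 of CPM + 1 of the summed cells) by astrocyte subtype and cell type. Each point is 1 suspension with at least 5 cells of the subtype or 3 cells of the type, and colours separate cortex from hippocampus. Sparc is high in AST4 and in mural, endothelial and microglial cells, while Gpc5, Chrdl1 and Spon1 lie at or near 0 in mural and endothelial cells.

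In CPM, the SPARC pair ran in opposite directions between astrocytes and vascular cells. Sparc was at 1580 and 1975 CPM in mural cells of cortex 1 and 2 and at 1959 and 1692 CPM in those of hippocampus 1 and 2, against 109.03, 87.9, 502 and 611 CPM in astrocytes of the same suspensions. Every mural value lay above every value of all astrocytes summed, but the subtype AST4 alone reached 1591 CPM. The fitted difference was 2.35 (log2, SE 0.53, adjusted p = 0.0173, edgeR quasi-likelihood test), and 27.4% of all genes tested were called between mural cells and astrocytes. Endothelial cells held 2487, 2729, 2226 and 2667 CPM of Sparc, above all mural values and 2.49 above astrocytes (log2, SE 0.58, adjusted p = 0.0169 by edgeR, 34.8% of all genes called). With the suspension as a block, neither Sparc call remained (adjusted p = 0.137 for mural and 0.0732 for endothelial cells, edgeR). Without TMM scaling, which sets each sum against the bulk of its genes, the differences of Sparc were 2.95 and 3.44.

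Sparcl1 fell from astrocytes to mural to endothelial cells, and with all astrocytes summed the values of these 3 types did not overlap. Single subtypes did not all keep this order. AST4 was at 4171 to 4842 CPM, below the mural values, and AST2 reached down to 5536 CPM. Mural cells held 5768, 5655, 5624 and 5223 CPM and endothelial cells 3768, 3507, 3021 and 3699 CPM, where the astrocytes of the same suspensions held 6852, 6850, 8717 and 8620 CPM. The differences from astrocytes were −1.06 (SE 0.10, adjusted p = 0.00094, edgeR) in mural and −2.07 (SE 0.23, adjusted p = 0.00554, edgeR) in endothelial cells on the log2 scale. Both kept their call with the suspension as a block. TMM scaling moved the values of these comparisons: the median of all genes was −1.28 with it and −0.69 without it in mural cells, and −3.11 and −2.19 in endothelial cells. Sparcl1 lay above that median in both types. This does not make it higher than in astrocytes, since its CPM was lower in every suspension. Without TMM the differences of Sparcl1 were −0.46 and −1.13.

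Microglial cells, of which 11 were typed, combined the highest mean of Sparc, which overlapped with that of endothelial cells, with little Sparcl1 in most cells. Sparc was at 3746, 2068 and 2590 CPM in the 3 suspensions with at least 3 cells, and its difference from astrocytes did not pass the test (log2 2.62, SE 0.92, adjusted p = 0.0854, edgeR). Without TMM scaling it was 4.03 and passed (adjusted p = 0.0292, edgeR), as it did by DESeq2 (adjusted p = 0.000257, with 67.4% of all genes called). Sparcl1 was at 0.149, 2396 and 0.819 CPM in the same suspensions. The value of cortex 2 came from 2 cells, which held 2546 and 4064 CPM of Sparcl1 and also 820 and 10455 CPM of the 6 astrocyte markers together, more than most of the other 9 cells (0 to 858 CPM). The part of astrocyte RNA in that value was not tested.

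Neuronal cells held little of either RNA. Sparc was at 0.258 and 81.97 CPM and Sparcl1 at 0.580 and 47.2 CPM in hippocampus 1 and 2, below all values of the astrocytes summed together. Neither difference passed the test (adjusted p = 0.325 and 0.108, edgeR), and 21.4% of all genes tested were called in this comparison. Oligodendrocytic cells, of which 4 and 3 came from the hippocampal suspensions, were not tested. They held 157.3 and 61.7 CPM of Sparc and 200 and 120 CPM of Sparcl1.

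Among the glypicans, Gpc5 was nearly absent from mural and endothelial cells while Gpc4 and Gpc6 were found in mural cells. Gpc5 was at 480, 454, 603 and 589 CPM in astrocytes of cortex 1 and 2 and hippocampus 1 and 2. In mural cells a single count was found in 1 cell (0.746% of them), and in endothelial cells none in 30, which allows a share of up to 10% of cells. Gpc5 was called lower in both types (adjusted p = 0.000234 and 0.00318, edgeR) and kept the call with the suspension as a block. In microglial cells Gpc5 was at 0, 627.8 and 0.273 CPM in cortex 1, cortex 2 and hippocampus 2, and the difference did not pass the test (adjusted p = 0.560, edgeR). The value of cortex 2 came from a single cell, the one with 10455 CPM of astrocyte markers.

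Gpc4 and Gpc6 had higher CPM in mural cells than in astrocytes of every suspension. Gpc4 was at 96.1, 115.9, 134.4 and 66.03 CPM in mural cells and at 65.8, 43.4, 57.6 and 65.3 CPM in astrocytes. Gpc6 was at 166.98, 281.4, 220.8 and 180 CPM in mural cells and at 128, 147.2, 120.8 and 111.8 CPM in astrocytes. The mural values did not overlap with those of all astrocytes summed, for Gpc4 by a narrow margin. Neither difference passed the test after TMM scaling (for Gpc4 0.24, SE 0.33, adjusted p = 0.680, and for Gpc6 0.15, SE 0.21, adjusted p = 0.695, edgeR). Without TMM the differences were 0.84 and 0.75, and Gpc6 passed (adjusted p = 0.0458, edgeR). In endothelial cells Gpc4 was counted in 2 and Gpc6 in 3 of 30 cells.

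In neuronal cells Gpc4 was counted and Gpc6 was not. Gpc4 was at 89.1 and 102.05 CPM, above the 57.6 and 65.3 CPM of astrocytes of the same suspensions, with a fitted difference that changed sign with the scaling (−0.40 with TMM, adjusted p = 0.587; 0.64 without, adjusted p = 0.359; edgeR). Gpc6 had no count in the 17 neuronal cells and Gpc5 had counts in 1 of them, and both were called lower (adjusted p = 0.0488 for each, edgeR). In microglial cells neither Gpc4 nor Gpc6 had a count, and both were called lower (adjusted p = 0.0207 for each, edgeR, where 48.6% of all genes were called). The 9 microglial cells tested allow a share of up to 33.3% of cells, and with the suspension as a block these microglial and neuronal calls were lost (adjusted p = 0.0566 and 0.379, edgeR).

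Chrdl1 and Spon1 were not detected in vascular cells apart from a single count. Chrdl1 had no count in the mural cells, which allows up to 2.24% of cells with a count, nor in 30 endothelial and 11 microglial cells. Spon1 had 1 count in 1 mural cell and none in the endothelial, microglial, neuronal and oligodendrocytic cells. Both were called lower than in astrocytes in mural (adjusted p = 0.00212 and 0.000333), endothelial (0.00666 for each) and microglial cells (0.0194 and 0.0206, edgeR), and Spon1 also in neuronal cells (adjusted p = 0.0488, edgeR). The calls in mural cells were kept with the suspension as a block, and those in endothelial (adjusted p = 0.0732), microglial (0.0566) and neuronal cells (0.379) were lost (edgeR).

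Like Gpc4, Chrdl1 had counts in 3 of the 17 neuronal cells. It was at 88.9 and 161.9 CPM there, above the 26.6 and 52.3 CPM of hippocampal astrocytes and below the 355.02 and 401 CPM of cortical astrocytes. The difference from hippocampal astrocytes did not pass the test (log2 0.64, SE 0.65, adjusted p = 0.591, edgeR).

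**Figure D2:**
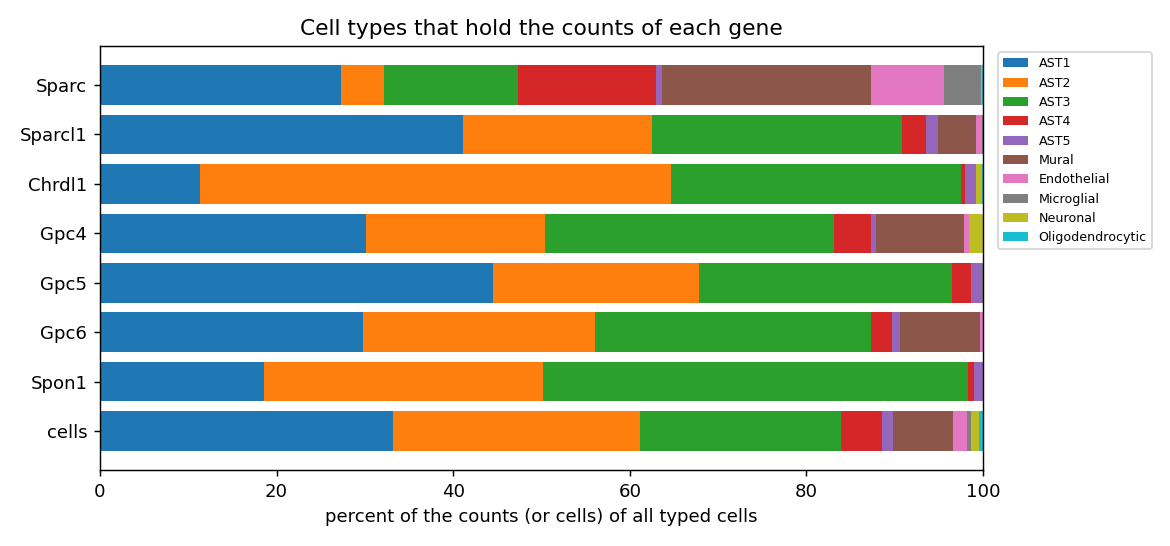
Percent of all counts of each gene over the 1982 typed cells that lay in cells of each subtype or type, as stacked bars that add to 100; the last bar gives the percent of cells. Mural cells were 6.76% of the cells and held 23.6% of the Sparc counts, and AST3 was 22.8% of the cells and held 48.1% of the Spon1 counts.

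Of the Sparc counts in typed cells, 36.1% lay in mural, endothelial and microglial cells, which were 8.83% of the cells, and a further 15.6% in AST4, which was 4.59% of the cells. Of the Chrdl1 counts, 53.4% lay in AST2, which was mostly cortical, and 32.8% in AST3. Of the Gpc5 and Sparcl1 counts 44.6% and 41.2% lay in AST1, which was 33.1% of the cells. Of the Gpc6 counts 29.8% lay in AST1, 26.4% in AST2, 31.2% in AST3 and 2.39% in AST4, which were 33.1%, 28.0%, 22.8% and 4.59% of the cells.

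**Figure D3:**
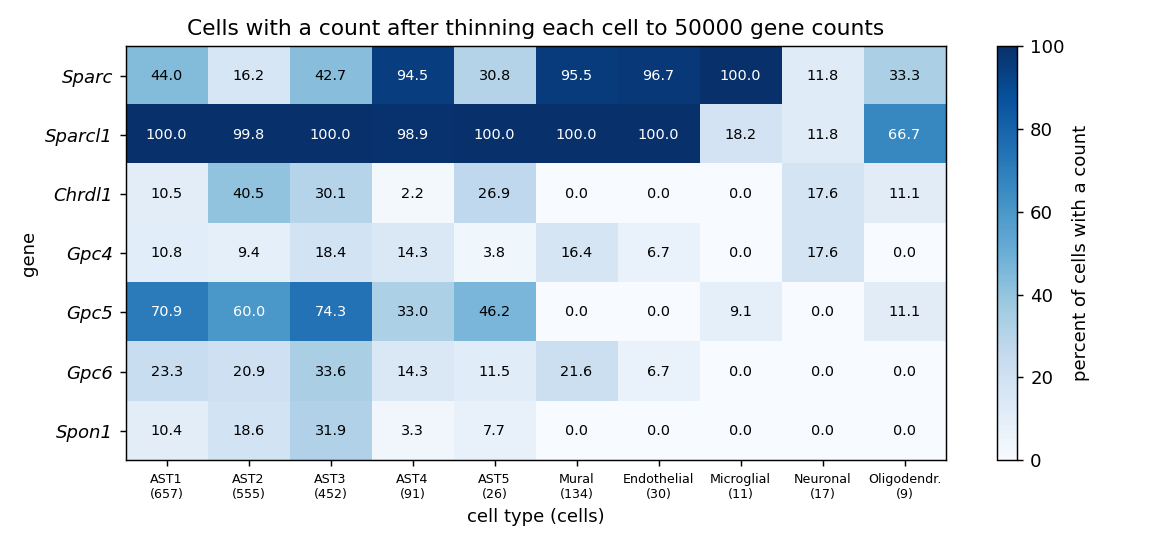
Percent of cells with at least 1 count of each gene after every cell was thinned to 50000 gene counts, by subtype and type, with the number of cells in brackets. Sparcl1 is found in nearly every astrocyte, mural and endothelial cell, Spon1 in 31.9% of AST3 cells and 3.30% of AST4 cells, and Chrdl1 in 40.5% of AST2 cells and 2.20% of AST4 cells.

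Within astrocytes, only Sparcl1 and Gpc5 were counted in most cells. Sparcl1 had a count in 99.9% of the 1781 astrocytes and Gpc5 in 69.2%, against 39.8% for Sparc, 27.3% for Gpc6, 27.2% for Chrdl1, 19.2% for Spon1 and 13.3% for Gpc4. The top 10% of the cells by level held 19.8% of the CPM of Sparcl1 summed over cells. For Gpc4, which only 13.3% of the cells counted, they held 96.4%. Cells that did count Gpc4 held a median of 389 CPM. Thinning each cell to 50000 counts lowered the shares little, to 66.1% for Gpc5 and 12.4% for Gpc4, and left 2.83 ± 1.05 members with a count in an astrocyte (SD over cells) and 3.31 ± 1.09 in an AST3 cell. A single cell had all 7.

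Sparc and Chrdl1 shared fewer cells than the product of their shares. After thinning, both had a count in 4.15% of astrocytes where that product is 9.22%, and Chrdl1 was counted in 11.1% of the cells with Sparc and in 32.7% of those without. Within subtypes both had a count in 2.59% of AST1 cells (product 4.62%), 3.78% of AST2 cells (6.57%) and 7.30% of AST3 cells (12.8%). In AST4 the 2 values were 2.20% and 2.08%. The parts of brain area and subtype in this share were not tested. Within single suspensions the rank correlation of the thinned counts over cells was weak, from −0.17 to −0.10.

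Subtypes were each compared with all other astrocytes of the same suspensions. AST1, mostly hippocampal, had the highest mean of Sparcl1 among the subtypes. It held 9220 and 9671 CPM in cortex 1 and 2 and 9268 and 9246 CPM in hippocampus 1 and 2, all above the other astrocytes (7026 ± 571 CPM, SD, n = 4). The difference was 0.54 on the log2 scale (SE 0.05, adjusted p = 0.0266, edgeR), the only member called in AST1, where 0.0502% of all genes tested were called. With the suspension as a block the adjusted p was 0.3795 (edgeR). Leaving out any 1 suspension ended the call (adjusted p between 0.236 and 0.622, edgeR). In hippocampus 1 and 2 AST3 held 9209 and 9313 CPM of Sparcl1, which overlapped with AST1 there. In cortex 1 and 2 AST3 was below AST1, at 7793 and 7541 CPM. The other astrocytes of hippocampus 1 and 2 included AST4, at 4842 and 4171 CPM of Sparcl1. The part of AST4 in the difference of AST1 was not tested. Gpc5 in AST1 was at 625, 678, 634 and 679 CPM, again above the other astrocytes in each suspension (465 ± 48.9 CPM), without passing the test (log2 0.62, SE 0.09, adjusted p = 0.125, edgeR).

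AST1 had little Spon1. It was at 15.3, 95.0, 60.7 and 81.98 CPM, below the other astrocytes in every suspension (205.3 ± 87.3 CPM) and with no overlap (log2 −1.47, SE 0.52, adjusted p = 0.640, edgeR). The share of all genes without overlap was not counted. For Sparc in AST1 the fitted sign (0.26, SE 0.52) was opposite to that of the means (307.4 ± 109.4 against 476 ± 456 CPM), and AST1 was higher than the other astrocytes in both cortical suspensions and lower in both hippocampal ones.

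AST2 was mostly cortical. In it Sparc was at 58.7 and 63.3 CPM in cortex and at 422 and 351.8 CPM in hippocampus, lower than in the other astrocytes of the same suspension 4 of 4 times (log2 −0.96, SE 0.17, adjusted p = 0.242, edgeR), though the values of the 2 groups overlapped over the 4 suspensions. Sparcl1 was at 5536, 5771, 6415 and 7990 CPM, below all values of the other astrocytes (log2 −0.50, SE 0.10, adjusted p = 0.320, edgeR). None of the 7 members was called in AST2 by edgeR, which called 0.0438% of all genes. At an unadjusted p under 0.05 were 4 members and 758 of 15976 genes (edgeR). DESeq2 called 0 members and 2.27% of all genes. Chrdl1, counted in 43.1% of AST2 cells, was at 413 and 438 CPM in the 2 cortical suspensions and at 7.90 and 39.9 CPM in the 32 hippocampal AST2 cells. It was higher than in the other astrocytes in the 2 cortical suspensions, which held most AST2 cells. It was lower in the 2 hippocampal ones, which held 10 and 22. The fitted sign (log2 −0.26, SE 0.55, adjusted p = 0.989, edgeR) was opposite to that of the means (224.5 ± 232.3 against 184.4 ± 168.8 CPM).

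AST3, found in both areas, had the highest mean of Spon1, with values that overlapped those of AST2. Its levels were 156.8, 122.8, 435 and 406 CPM, where the other astrocytes held 94.4 ± 26.6 CPM, and 33.2% of its cells had a count. AST3 was higher in 3 of 4 suspensions (log2 1.42, SE 0.46, adjusted p = 0.566, edgeR). Gpc4 (82.1 ± 25.2 against 50.4 ± 10.4 CPM) and Gpc6 (162.9 ± 45.1 against 116.8 ± 16.4 CPM) were higher in AST3 in 4 of 4 suspensions, with differences of 0.72 (SE 0.23, adjusted p = 0.558) and 0.52 (SE 0.21, adjusted p = 0.728, edgeR). No member was called in AST3 by edgeR, nor any other gene (0%, with 1073 of 16139 genes at an unadjusted p under 0.05). DESeq2 called 2.96% of all genes, Sparcl1 and Spon1 among them.

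AST4, found in the hippocampus but for 2 cells, had a pattern of its own. Sparc was at 1461 and 1591 CPM in hippocampus 1 and 2, where the other astrocytes held 439 ± 64.6 CPM (SD, n = 2), and had a count in 97.6% (95% Wilson interval 87.4 to 99.6%) and 91.7% (80.4 to 96.7%) of the AST4 cells. Sparcl1 was at 4842 and 4171 CPM against 9171 ± 26 CPM. Thus the ratio of Sparcl1 to Sparc was lower in AST4 than in the other astrocytes of both suspensions. Sparcl1 was the only member called (log2 −1.41, SE 0.09, adjusted p = 0.0458, edgeR), where 0.622% of all genes tested were called. For Sparc the difference was 1.41 (SE 0.15, adjusted p = 0.0792, edgeR), and it was called once cells were thinned to equal counts (adjusted p = 0.0326, edgeR, with 2.38% of all genes called).

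Gpc5, Gpc6 and Spon1 had lower values in AST4 than in the other astrocytes of both suspensions. Gpc5 was at 311.98 and 163.8 CPM (other astrocytes 640 ± 5.46), Gpc6 at 57.01 and 81.1 CPM (121.9 ± 8.73) and Spon1 at 9.27 and 27.1 CPM (157.3 ± 24.9). None of these groups overlapped, and none passed the test (adjusted p = 0.141 for each, edgeR). On thinned cells Spon1 was called (adjusted p = 0.0145, edgeR), and DESeq2, which called 19.6% of all genes, called all 3. Gpc4 at 43.05 and 68.8 CPM (62.1 ± 3.98) and Chrdl1 at 0 and 39.1 CPM (41.7 ± 17.3) overlapped with the other astrocytes. With the suspension as a block the adjusted p of Sparcl1 was 0.221 (edgeR), and no gene was called in AST4 (0%, with 1626 genes at an unadjusted p under 0.05).

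Markers of several lists also differed in AST4. The 6 astrocyte markers had a median difference of −2.30 from the other astrocytes (log2, all genes −0.15), and 2 of them, Aqp4 and Slc1a2, were called lower by edgeR (adjusted p = 0.0219 for each, and 0.205 for each with the block). Of the 6 oligodendrocyte markers Cnp was called lower (log2 −1.79, SE 0.13, adjusted p = 0.0461, and 0.228 with the block, edgeR). Mural markers summed to 126.1 and 445 CPM in AST4 of the 2 suspensions. They summed to 1.47 to 288.1 CPM in AST1 to AST3 and to 47790 to 56998 CPM in mural cells. Of the 7, 5 were counted in AST4, while Kcnj8 and Myh11 were at 0. The 5 mural markers tested had a median difference of 3.21 from the other astrocytes (log2, all genes −0.15), with none called. The 3 fibroblast markers summed to 0 CPM in one suspension of AST4 and 385.1 CPM in the other, against 5.34 to 54.7 CPM in AST1 to AST3, and Dcn and Lum were counted in 2.20% of AST4 cells each and in no other astrocyte. The 5 progenitor genes of the hippocampus summed to 1107 and 1424 CPM in AST4 and to 19.7 to 192.3 CPM in AST1 to AST3. The part of these differences in the levels of the members was not tested.

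AST5 (26 cells) gave values for 3 suspensions. Sparcl1 was at 8733, 11364 and 6902 CPM in cortex 1, cortex 2 and hippocampus 1, Sparc at 413, 125.7 and 206.03 CPM and Chrdl1 at 165, 561 and 5.18 CPM. All of these overlapped with the other astrocytes. Gpc4 and Spon1 had counts in 1 cell each of hippocampus 1 and in none of the 8 and 10 AST5 cells of cortex 1 and 2. No member was called by edgeR (0 at an unadjusted p under 0.05, with 34.1% of all genes called, 27 as higher and 5199 as lower). DESeq2 called Gpc4 and Spon1, where it called 53.9% of all genes.

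In the order of the subtypes by mean level, few neighbours were apart. Only AST4 and AST3 for Sparc, AST2 and AST4 for Sparcl1, and AST2 and AST1 for Spon1 did not overlap in their suspension values. For Chrdl1 and the 3 glypicans all neighbours overlapped. With so few suspensions unchanged genes can also fail to overlap, and the share over all genes was not counted.

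Brain area is given by the labels and not by the clustering, and Sparc and Chrdl1 had opposite values in the 2 areas. Over all astrocytes Sparc was at 109.03 and 87.9 CPM in the 2 cortical suspensions and at 502 and 611 CPM in the 2 hippocampal ones, and Chrdl1 was at 355.02 and 401 CPM in cortex and 26.6 and 52.3 CPM in hippocampus. The groups did not overlap: hippocampus over cortex was 2.52 for Sparc (log2, SE 0.17) and −3.24 for Chrdl1 (SE 0.40). The shares of cells with a count moved the same way. Sparc was counted in 23.4% (95% Wilson interval 19.8 to 27.5%) and 22.4% (19 to 26.3%) of cortical astrocytes and in 56.0% (51 to 60.8%) and 62.9% (58.2 to 67.3%) of hippocampal ones. Chrdl1 was counted in 42.7% (38.3 to 47.3%) and 43.3% (39 to 47.7%) of cortical and in 7.63% (5.40 to 10.7%) and 9.81% (7.34 to 13%) of hippocampal astrocytes. These intervals cover counting error only. Between areas the 5 mural markers tested had a median difference of 2.01 and the 5 progenitor genes 2.77 (log2, all genes 0.01), with none called. Mural markers summed to 104.5 to 146.4 CPM in astrocytes of the 4 suspensions. The part of these genes in the area difference of Sparc was not tested.

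Smaller differences were seen for Sparcl1 and Gpc5. Sparcl1 was at 6852 and 6850 CPM in cortex and 8717 and 8620 CPM in hippocampus (log2 0.36, SE 0.03), and Gpc5 at 480 and 454 CPM against 603 and 589 CPM (log2 0.38, SE 0.05). Gpc6 (log2 −0.22, SE 0.12) and Spon1 (0.26, SE 0.15) did not overlap either, by a narrow margin, and Gpc4 (0.20, SE 0.24) did.

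With 2 suspensions an area, none of these differences passed the edgeR test over all genes. Unchanged genes can also fail to overlap with so few suspensions, and the share over all genes was not counted. The adjusted p was 0.135 for Sparc and Sparcl1, 0.176 for Chrdl1, 0.199 for Gpc5, 0.570 for Gpc6, 0.582 for Spon1 and 0.864 for Gpc4. No gene at all was called (0%, with 2609 of 19160 genes and 4 members at an unadjusted p under 0.05). DESeq2 called 9.7% of all genes and edgeR on cells thinned to equal counts 1.73%, and both called the same 4 members (on thinned cells adjusted p = 0.00541 for Sparc, 0.0105 for Sparcl1, 0.0196 for Chrdl1 and 0.0495 for Gpc5).

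**Figure D4:**
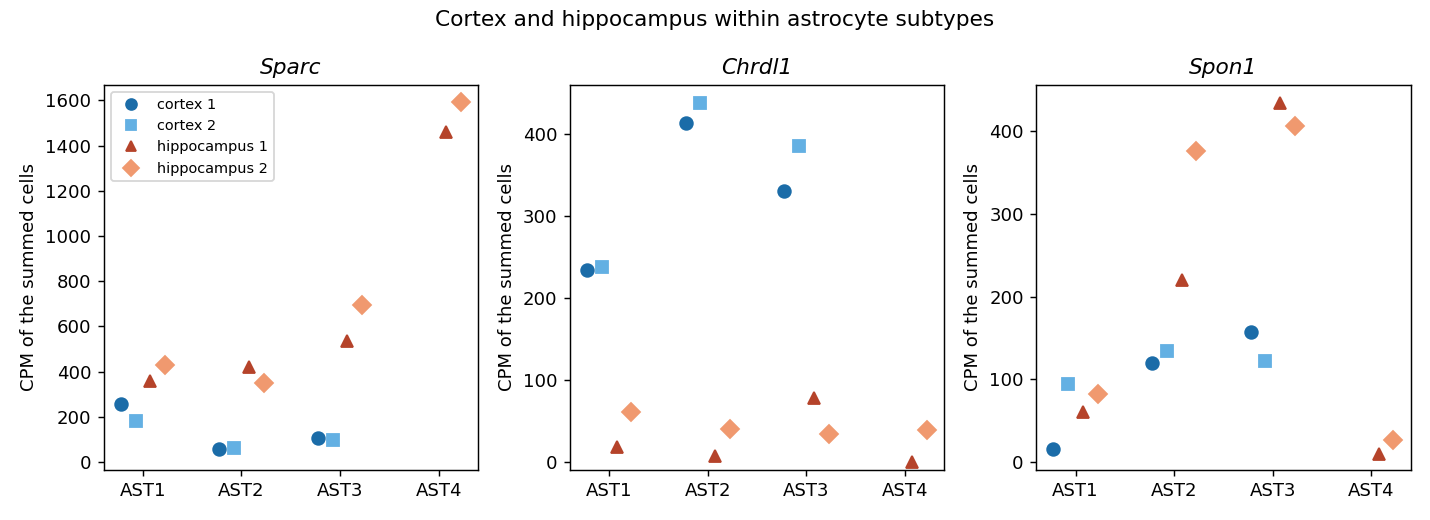
Level of each gene (CPM of the summed cells) in AST1 to AST4 by suspension, cortex and hippocampus in separate colours; each point is 1 suspension with at least 5 cells of the subtype. Sparc is higher in hippocampus and Chrdl1 higher in cortex in each of AST1, AST2 and AST3, and Spon1 is higher in hippocampus in AST2 and AST3.

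Since the areas hold different subtypes, the same comparison was made within them. The subtypes were found by clustering the same counts, so area differences within them are not independent of the clustering. In AST1 Sparc was at 258.4 and 181.6 CPM in cortex and 360 and 430 CPM in hippocampus (log2 0.88, SE 0.23, adjusted p = 0.257, edgeR), and Chrdl1 at 233.7 and 237.2 CPM against 18.1 and 61.4 CPM (log2 −2.53, SE 0.68, adjusted p = 0.260, edgeR). The other members overlapped between areas in AST1, and Sparcl1 differed by 0.003 with an SE of 0.06. No gene was called in AST1 by edgeR (0%, with 2023 of 15521 genes, Sparc and Chrdl1 among them, at an unadjusted p under 0.05). By DESeq2 17.5% of all genes passed, again with these 2 members.

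In AST3, 5 of the 7 members did not overlap between areas. With 2 suspensions an area, unchanged genes can also fail to overlap, and the share over all genes was not counted. Sparc was at 107.1 and 97.8 CPM in cortex and 537 and 696 CPM in hippocampus (log2 2.64, SE 0.19), and Spon1 at 156.8 and 122.8 CPM against 435 and 406 CPM (log2 1.64, SE 0.17). Chrdl1 was at 330 and 385 CPM in cortex against 78.5 and 34.8 CPM (log2 −2.61, SE 0.45). Sparcl1 (0.33, SE 0.04) and Gpc5 (0.34, SE 0.11) were also apart. All 5 had an adjusted p of at least 0.3797 by edgeR, which called no gene (0%). At an unadjusted p under 0.05 were 1547 of 14960 genes and 5 members. DESeq2 called 13.8% of all genes and these 5 members.

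Whether the area differences of AST3 and AST1 differ was tested in a fit over both, a comparison chosen after the values were seen. For Sparc the difference of AST3 exceeded that of AST1 by 1.76 (log2, SE 0.31; p = 0.00134 before and 0.420 after adjustment, edgeR) and for Sparcl1 by 0.32 (SE 0.07, adjusted p = 0.433, edgeR). None of 17213 genes was called in this fit, with 1559 at an unadjusted p under 0.05. For Spon1 it was 1.24 with an SE of 1.07.

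AST2 had 10 and 22 hippocampal cells and is given by values only. Sparc was at 58.7 and 63.3 CPM in cortex and 422 and 351.8 CPM in hippocampus, and Spon1 at 119.3 and 134.4 CPM against 220 and 376.6 CPM. Thus the hippocampal values were higher for both, as in AST3.

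**Figure D5:**
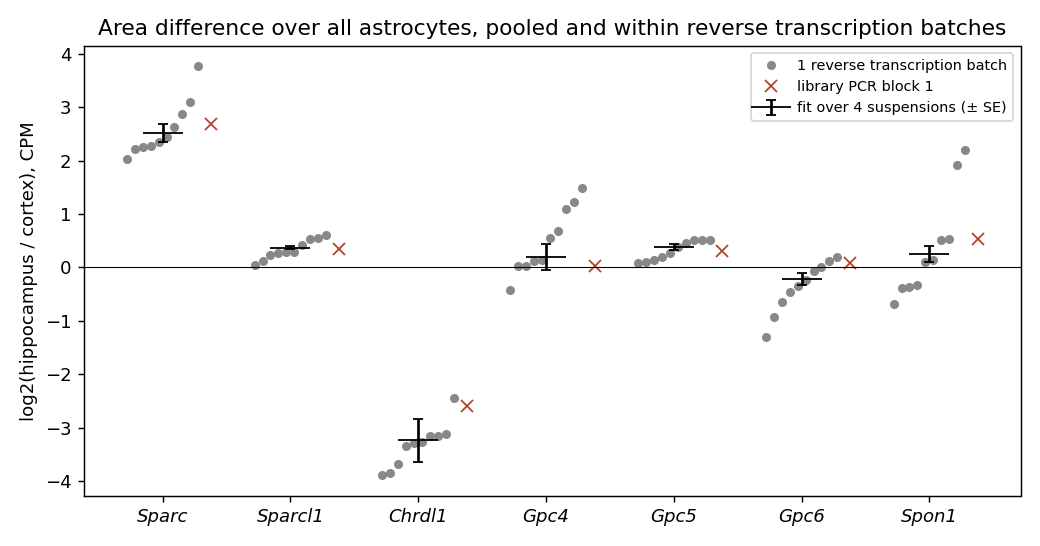
Difference between areas (log2 of hippocampus over cortex CPM, all astrocytes) for each gene. Grey points are the 10 reverse transcription batches that hold cells of both areas, crosses the cells of library PCR block 1, and black lines the fit over 4 suspensions with its SE. All points of Sparc, Sparcl1 and Gpc5 lie above 0 and all of Chrdl1 below 0. The batches are parts of the same 4 suspensions.

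The labels also give the date of reverse transcription, where a repeated date carries a suffix, and the thermal block of the library PCR. In all 10 batches so labelled that held cells of both areas, from 8 dates, Sparc was higher in hippocampus (log2 2.04 to 3.77), as were Sparcl1 (0.05 to 0.61) and Gpc5 (0.09 to 0.52), and in all 10 Chrdl1 was lower (−3.89 to −2.45). Gpc4 was higher in 9, Spon1 in 6 and Gpc6 in 3 of the 10 batches. The batches split the cells of the same 4 suspensions and are not independent repeats. Area, litter and pooling cannot be told apart within them. All cortical cells were amplified in block 1 and most hippocampal cells in another block. Within block 1, with 52 and 61 hippocampal astrocytes, the differences were 2.69 for Sparc, 0.35 for Sparcl1, −2.61 for Chrdl1 and 0.31 for Gpc5.

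Genes of the same pathways were read beside the members, in lists of thrombospondins, other glypicans, other SPARC family genes, heparan sulfate enzymes, binding partners, BMP ligands and antagonists, other spondins and other secreted synapse regulators. In AST1, AST2, AST3 and the 3 area comparisons, none of their genes was called by edgeR. In AST5, 26 of the 52 list genes tested were called lower, where 34.1% of all genes were called, and none of them with the suspension as a block. In AST4, 1 of the 57 list genes tested was called, where 0.622% of all genes were called. It was App, the precursor of amyloid and a binding partner of F-spondin. App was at 348.98 and 391 CPM in AST4 (log2 2.24, SE 0.18, adjusted p = 0.0490, edgeR) and had a count in 58.2% of its cells. With the suspension as a block the call was lost (adjusted p = 0.228, edgeR). Thbs4, a thrombospondin, was at 189.2 and 148.6 CPM in AST4 without a call, with counts in 23.1% of AST4, 8.22% of AST1 and 0.221% of AST3 cells.

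Between areas, the list genes with the lowest p were Thbs4 and App. Over all astrocytes Thbs4 was at 8.52 and 6.55 CPM in cortex and 82.9 and 71.3 CPM in hippocampus (log2 3.38, SE 0.21, adjusted p = 0.135, edgeR). App was at 16.3 and 19.3 CPM against 85.1 and 101.3 CPM (log2 2.41, SE 0.18, adjusted p = 0.135, edgeR). Among BMP ligands, Bmp7 ran the other way with 96.6 and 102.8 CPM in cortex and 24.8 and 32.7 CPM in hippocampus, as did Il33, a cytokine of synapse refinement, with 295.9 and 336.1 CPM against 191 and 180 CPM. Within AST3 Il33 did not have that order, at 359.3 and 380 CPM in cortex and 419 and 444 CPM in hippocampus. Thbs1, Thbs2 and Thbs3 were at 0 to 0.747, 0 to 3.39 and 12.4 to 23.2 CPM in astrocytes of the 4 suspensions. The median differences of the 8 lists ran from −1.24 (3 other glypicans tested) to 3.20 (4 thrombospondins tested), where the median over all genes was 0.01.

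In mural cells 7 of the 59 list genes tested were called higher and 17 lower, where 27.4% of all genes were called. Higher were Fstl1, a secreted relative of Sparc (327.1 to 682 CPM against 103.8 to 126.4 in astrocytes, log2 1.66, SE 0.23, adjusted p = 0.0056, edgeR), the growth factor Ptn (3226 to 3789 CPM against 1158 to 1283; log2 0.94, SE 0.10, adjusted p = 0.0019, edgeR), App, Extl3, Gpc3, Bmp4 and Bmp5. Gpc3, a glypican outside the members, was at 230 to 558 CPM in mural cells, with a count in 55.2% of them. Among those lower were Nlgn1, Gria2, Thbs3, Thbs4 and Xylt1, a xylosyltransferase that starts glycosaminoglycan chains. Nlgn1 and Xylt1 had no count in mural cells. In endothelial cells 29 of 54 list genes were called lower, among them Smoc1 of the SPARC family, and 2 higher, App and Spock2, where 34.8% of all genes were called. Spock2, another relative of Sparc, was at 350.6 to 731 CPM with a count in 96.7% of cells (log2 4.66, SE 0.63, adjusted p = 0.00666, and 0.0600 with the suspension as a block, edgeR). In microglial cells 33 of 51 list genes were called lower (48.6% of all genes were called), and in neuronal cells 9 of 57 were called higher and 18 lower (21.4% of all genes). There Reln, a secreted ligand of apolipoprotein E receptors, was counted in all 17 at 2753 and 2207 CPM. With the suspension as a block, 4 list genes were called higher and 4 lower in mural cells (4.19% of all genes called), Fstl1 and Ptn among the higher, and 1 higher and 1 lower in endothelial cells (1.62%). In microglial cells the block called 29 genes, none from the lists, and in neuronal cells it called no gene (0%, with 1018 at an unadjusted p under 0.05, edgeR).

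The genes most like each member were found over 32 sums of a type or subtype and suspension, as the correlation of log2(CPM + 1) across these sums among 9997 genes, a description in which the sums share suspensions and cell types. Gpc5 was most like Ntsr2 (r = 0.99), Fgfr3 and AI849053. Among the genes most like Sparcl1 were Mfge8 (r = 0.95) and Aldh7a1. Spon1 was most like Naprt (0.96), Fam198a and Gdpd2, and Gpc6 most like Cpq (0.95), Il15ra and Nrarp. For Chrdl1 they were Mir9-3hg (0.90), Snph and Wnt7b, for Gpc4 Txndc12 (0.88), Tnrc6b and Fam69b, and for Sparc B2m (0.87), Txnip and Pfn1. Over the 17 astrocyte sums alone the correlations were lower for all of these but Tnrc6b. They were 0.90 for Cpq, 0.87 for Naprt, 0.68 for Ntsr2, 0.65 for Txndc12, 0.64 for B2m and 0.55 for Mir9-3hg, and among the others they went down to 0.38 for Txnip, 0.05 for Pfn1 and −0.02 for Mfge8. Among the members, the lowest correlation was that of Sparc and Chrdl1, at −0.65 over all sums and −0.71 over the 17 astrocyte sums.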

How the data were processed

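Single astrocyte-gated cells were profiled by Smart-seq2. Per the labels and the submitters' processing notes, the authors aligned reads to GRCm38.p5 with STAR 2.5.2b, counted them per gene with HTSeq and removed libraries of low quality by FastQC 0.11.4 and other measures, so that the deposited values are raw read counts without molecular identifiers. Cell files were used, and 2027 columns of the series-wide count table were not; the 4 columns checked equalled their files for all 7 genes. Symbols were matched for 49326 of 49671 identifiers. Cell types came from the list the authors supplied with the study, and the copy used here does not cover some cells of cortex 1. Cells without a type entered no comparison.

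Counts were summed per suspension and type (at least 5 cells of a subtype or 3 of a type) and tested with edgeR 4.0.16 (R 4.3.3; glmQLFTest, filterByExpr, TMM) with brain area as a covariate where both areas had sums, and Benjamini-Hochberg adjustment over all genes tested (threshold 0.05). Both arms of a type or subtype comparison came from the same suspension, so the suspension pairs them; between areas the replicate numbers pair nothing. DESeq2 1.42.0, RLE scaling, no filter, cells thinned to 50000 counts, the suspension as a block and leaving out each suspension were alternatives; library totals without TMM, library PCR block 1 alone and the fit of area by subtype were chosen after seeing the data. The test was checked on simulated data, where it recovered nearly all changed genes at a low spread between sums and few at a high one. The spread fitted to each comparison here was above the higher one simulated, so a difference that did not pass is not shown to be absent. With at most 4 suspensions, p-values measure the spread between sums of these suspensions. In type and subtype comparisons the main fit treated the paired sums as independent, and the fit with the suspension as a block used the pairing. Wilson intervals (95%) and limits at 0 (3 counts or cells) cover counting error only. Named genes were the 7 members, the 3 most alike per member (mean CPM of at least 10) and at most 4 genes per list by p. Results of some genes that this rule names are not reported here. Members and lists were chosen with earlier results of these data known.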

Additional observations from a re-analysis of the deposited data

Results flagged for a closer look

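Among 36 groups of 4 suspensions, 2 had a value far from the other 3, where chance flags about 1 in 20. Sparcl1 in AST1 of cortex 2 was at 9671 CPM, with the others at 9220, 9246 and 9268 CPM. Gpc6 in endothelial cells of cortex 2, which are 3 cells, was at 177.2 CPM, with the others at 0, 2.61 and 29.3 CPM.

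The 48 cells without a type here entered no comparison, and their counts are given here for that reason. Sparcl1 had a count in 100% of them, Gpc5 in 56.25%, Sparc in 35.4%, Gpc6 in 29.2%, Chrdl1 and Spon1 in 25% each and Gpc4 in 10.4%.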

How the results depend on the processing

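Over all alternatives, the values of single members kept direction and side of the threshold 699 times, lost a call 44 times, gained one 37 times and changed sign 39 times. The causes of the changes were not tested.

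The number of members called in AST1 (1) became 0 with RLE, without TMM, with the replicate block, in 1 fit over all 5 subtypes and without any 1 suspension (0 to 0), and 2 with DESeq2 (4.01% of all genes). In AST4 (1) it became 0 with RLE, without the low-count filter, without TMM and with the replicate block, 3 with thinned cells (2.38% of all genes called) and 5 with DESeq2 (19.6%). DESeq2 called 2 members in AST3 (2.96% of all genes), 2 in AST5 (53.9%) and, between areas, 4 over all astrocytes (9.7%), 2 in AST1 (17.5%) and 5 in AST3 (13.8%), where edgeR called 0. Thinned cells gave 4 over all astrocytes (1.73%). AST5 gave 2 without hippocampus replicate 1 (5480 of 16264 genes called) and 0 without either cortical one, where no gene was called. Endothelial calls (5) became 2 and microglial calls (4) became 0 with the block, and microglial calls were 0 to 2 without 1 suspension. Neuronal calls (3) became 5 with DESeq2 (50.5% of all genes), 1 with thinned cells (2.14%) and 0 without the filter, without TMM and with the block. Between areas, where the replicate numbers pair nothing, the replicate block called 0 (adjusted p = 0.475 for Sparc, edgeR). Thinning moved the share of astrocytes with a count from 69.2% to 66.1% for Gpc5 and from 27.3% to 24.5% for Gpc6. Leaving out a suspension could not be fitted for AST4 and neuronal cells.

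No sign change concerned a called value. Differences are log2 values, and ranges are those without 1 suspension. In AST1, Sparc ranged from −0.24 to 0.72 (negative without either cortical suspension), Gpc4 from −0.53 to 0.38 (−0.095 with the block, −0.049 without TMM and −0.099 thinned) and Gpc6 from −0.079 to 0.20 (−0.061 without TMM). In AST2, Chrdl1 ranged from −0.50 to 0.057 and Gpc4 from −0.62 to 0.40 (0.025 with RLE, 0.025 with DESeq2 and 0.030 without TMM). In AST3, Chrdl1 ranged from −0.27 to 0.69. In AST5, Sparc ranged from −1.10 to 0.93 (−0.076 unfiltered, −0.21 with the block, −0.24 thinned and −0.10 in 1 fit), and Sparcl1 was 0.26 without TMM. Between areas over all astrocytes, Gpc4 ranged from −0.060 to 0.51 and Gpc6 was 0.11 in PCR block 1. Between areas within AST1, Sparcl1 ranged from −0.056 to 0.066 (−0.049 with RLE and with DESeq2, −0.029 without TMM), Gpc5 from −0.038 to 0.13 (−0.0081 with RLE and with DESeq2), Gpc4 from −1.38 to 0.51 and Spon1 from −0.40 to 2.28. Within AST3, Gpc6 ranged from −0.18 to 0.61. Neuronal Gpc4 was 0.64 without TMM. The median of all genes moved by over 0.1 between TMM and no TMM in AST1 (−0.08 and −0.20), AST4 (−0.15 and 0.24), AST5 (−4.57 and −3.98), microglial cells (−10.35 and −10.01) and neuronal cells (−1.56 and −0.52), as in mural and endothelial cells above.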
